A study of Mus musculus with 9 samples.

Results

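The matrix metalloproteinases (MMPs) and the tissue inhibitors of metalloproteinases (TIMPs) were followed in bone marrow-derived dendritic cells (DCs) activated with LPS or with IFN-β. The group holds 10 genes, chosen by their symbols: Mmp2, Mmp8, Mmp9, Mmp12, Mmp13, Mmp14, Mmp19, Timp1, Timp2 and Timp3, which are 7 proteases and 3 inhibitors among the 55471 genes with a row in the counts. DCs were grown with GM-CSF from the marrow of wild-type female C57BL/6 mice of 8 to 20 weeks. They were left unstimulated, or given LPS at 100 ng/mL or IFN-β at 1000 U/mL for 6 h, which makes 3 conditions. No time is given for the unstimulated cells. Each condition has 3 libraries that carry the letters A, B and C, 9 in all. A GM-CSF culture of marrow is a mixture of DC-like and macrophage-like cells, and the labels describe no sort of the cells for these libraries. In such bulk RNA, a change in the number of cells of a type and a change in RNA per cell cannot be told apart.

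MMPs are zinc endopeptidases that are made as inactive precursors and cut collagens, elastin, fibronectin, proteoglycans and many cytokines and surface proteins. Most are secreted, and the membrane-type enzymes stay on the cell surface. TIMPs block the active site of MMPs at a ratio of one inhibitor per enzyme, so that the balance of both sets how much a cell can degrade. In DCs and macrophages these enzymes are known for their part in moving through basement membranes and tissue matrix after activation.

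Total counts per library were between 33425803 and 43735199, and 16260 genes, including all 10 members, passed the filter on low counts and were tested. Levels are given as CPM, the counts of a gene relative to the scaled total of its library, scaled with TMM factors. These factors differed by condition, at 1.18 to 1.26 in unstimulated, 0.783 to 0.841 in LPS and 0.977 to 1.02 in IFN-β libraries. A lower factor gives a higher CPM for the same share of counts. The summed level of 10 DC markers was between 5537 and 8132 CPM and that of 10 macrophage markers between 2245 and 3650 CPM. Of the 10 DC markers 9 passed the filter on low counts. The DC gene Cd209a did not, with 5 to 16 counts in unstimulated, 0 or 1 in LPS and 0 to 4 in IFN-β libraries, and Flt3 was low at a mean of 2.65 to 3.49 CPM. All 10 macrophage markers passed. Lymphoid markers summed to at most 0.456 CPM. The 10 stimulation genes examined as a check, such as Il12b and Il6, all passed as higher after LPS (edgeR, adjusted p under 0.05). After IFN-β 9 of the 10 passed as higher, and all 10 passed when the letters entered the model. Where the values of 3 libraries follow each other, they are in the order A, B, C. Libraries of the same letter deviated from their group means together, so each member whose call changes when the letters enter the model is given with that value too. The labels do not say whether the letters mark separate cultures or mice, and p-values therefore measure only the spread between these libraries.

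LPS changed 7 of the 10 members: Mmp13, Timp1, Mmp2 and Mmp14 rose, and Mmp19, Timp2 and Mmp8 fell. Of all tested genes 68.2% passed the same test (edgeR's quasi-likelihood test, adjusted p under 0.05), 32.8% higher and 35.4% lower, so a share of 7 in 10 is close to the background. With the letters as a block Timp3 joined them, which gives 8 of 10 members against 73.5% of all genes. The libraries of the 2 groups did not overlap for 8 members (the 7 and Mmp12), as for 72.4% of all genes. The median log2 fold change of the members was 0.50, beside -0.04 over all tested genes.

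IFN-β changed fewer members without the block: Mmp13, Mmp14 and Mmp12 rose, and no member fell. This is 3 of 10, where 46.9% of all genes passed, 23.6% higher and 23.3% lower. With the letters as a block 9 of the 10 passed, 6 higher and 3 lower, beside 56.3% of all genes, so the count for IFN-β depends on whether the letters are modelled. The libraries did not overlap for the same 3 members, beside 58.1% of all genes. The members' median log2 fold change was 0.28, and that over all tested genes was -0.02.

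The responses to the 2 stimuli were compared by testing IFN-β against LPS directly. Mmp19 and Mmp8 were higher and Timp1, Mmp2 and Mmp14 were lower after IFN-β than after LPS, 5 of 10 members beside 49.1% of all genes (25.8% higher and 23.3% lower). With the block 8 of 10 members passed, Mmp9, Mmp13 and Timp2 in addition, beside 58.0% of all genes. The libraries did not overlap for 6 members, beside 56.8% of all genes, and the members' median difference was -0.30 on the log2 scale, where that of all genes was 0.02. The LPS and IFN-β comparisons share their unstimulated libraries and are not independent of each other.

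**Figure D1:**
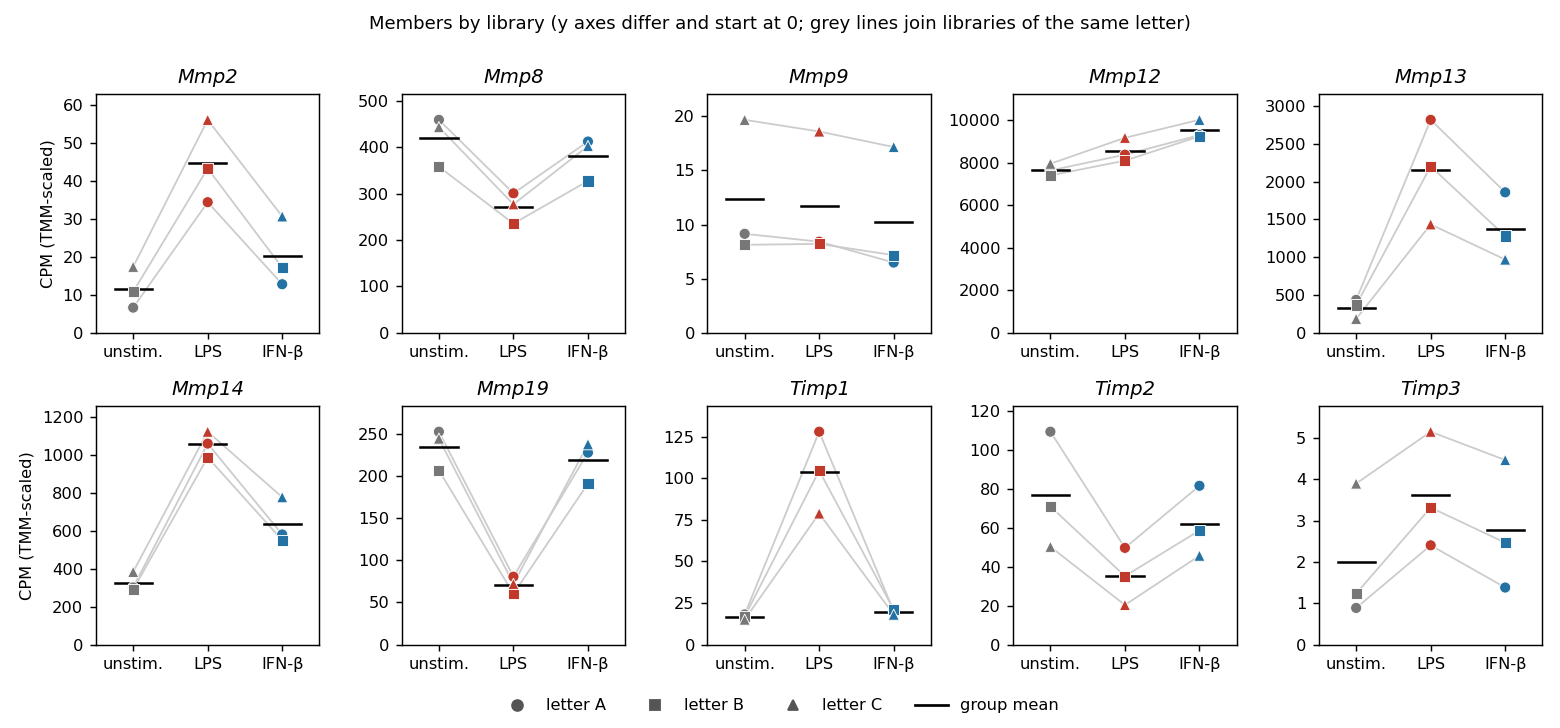
Level of each member in the 9 libraries, in TMM-scaled CPM on linear axes that start at 0 and differ between panels, with black bars for the mean of 3 libraries and grey lines joining libraries of the same letter. Mmp13, Mmp14, Mmp2 and Timp1 are highest after LPS, Mmp8, Mmp19 and Timp2 are lowest there, and Mmp9 lies higher in the C libraries than in the A and B libraries in each condition.

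Mmp13 (collagenase 3, which cuts fibrillar collagens and has a wide range of other substrates) had the largest estimated rise under LPS without the block, close to that of Timp1. It stood at 434, 366 and 182 CPM before stimulation, at 2819, 2203 and 1435 CPM after LPS, and at 1859, 1280 and 968 CPM after IFN-β. The lowest stimulated library was more than double the highest unstimulated one, and in each condition library A was highest and library C lowest. The rise was 6.57-fold under LPS (log2 2.72 ± 0.36 SE, adjusted p = 5.5e-05, edgeR's quasi-likelihood test) and 4.18-fold under IFN-β (log2 2.06 ± 0.35, adjusted p = 0.000791). The lower level after IFN-β than after LPS, a log2 difference of -0.65 ± 0.34, did not pass (adjusted p = 0.137, edgeR) but did with the letters as a block (adjusted p = 4.1e-05), and within the letters it ran from -0.78 to -0.57. Mmp13 was thus called in both comparisons with unstimulated cells, under each of the 19 alternative settings tried.

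Mmp8 (neutrophil collagenase), the other secreted collagenase among the members, went the opposite way under LPS. Unstimulated DCs had 460, 358 and 444 CPM, LPS libraries 301, 236 and 277 CPM, and IFN-β libraries 413, 328 and 403 CPM. Library B was lowest in every condition. LPS lowered the level 1.55-fold (log2 -0.63 ± 0.13 SE, adjusted p = 0.00114, edgeR), and IFN-β libraries lay 1.41-fold above those of LPS (log2 0.49 ± 0.13, adjusted p = 0.00867, edgeR). That second call was lost when letter C was left out of all groups (adjusted p = 0.0589, edgeR). IFN-β and unstimulated libraries overlapped, with a log2 difference of -0.14 ± 0.13 (adjusted p = 0.391, edgeR, and 0.048 with the block). Scaled by library size only, this difference was -0.45 and passed (adjusted p = 0.00464, edgeR), while the median of all genes was -0.32.

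A set of 12 neutrophil markers, which did not hold Mmp8 or Mmp9, summed to 23.4 to 58.8 CPM in unstimulated, 56.7 to 164 CPM in LPS and 41.9 to 93.8 CPM in IFN-β libraries. Of the 12, Elane, Mpo, Ly6g and Retnlg were near 0, with at most 2, 5, 10 and 2 counts in any library, whereas S100a8 had 244 to 520 counts, S100a9 25 to 239, Ngp 6 to 106 and Ltf 4 to 72. Csf3r, the G-CSF receptor, made up much of the sum, at a mean of 18.4 CPM unstimulated and 79.5 CPM after LPS. The sum was highest in library A of each condition and higher after LPS than before within each letter, mostly through Csf3r. The other markers not named as near 0 went both ways from unstimulated to LPS. The mean rose for S100a8 (10.0 to 12.8 CPM), Ngp (0.971 to 1.17) and Camp (0.0713 to 0.896). It fell for S100a9 (3.05 to 2.66), Ltf (0.683 to 0.555), Cebpe (2.20 to 2.09) and Cxcr2 (0.655 to 0.0635). Mmp8 was lower after LPS than before within each letter. The part of these markers in the values of Mmp8 was not tested.

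Mmp13, Mmp12 and Mmp8 lie in this order on the plus strand of chromosome 9 in one cluster of MMP genes (build GRCm38, annotation GENCODE M21). Mmp13 is at chr9:7272514-7283331, Mmp12 at chr9:7344381-7369499, which is 61049 bases further on, and Mmp8 at chr9:7558456-7568485. Between and around them lie Mmp1b, Mmp3, Mmp1a, Mmp10, Mmp27, Mmp20 and Mmp7. Mmp1a and Mmp1b had 0 counts in every library, and Mmp3 had at most 5 counts in a library. Mmp10 had 2 to 11 counts, and Mmp27, only 2910 bases beyond Mmp8, had 36 to 125 counts. Genes of one cluster therefore ranged from 0 counts to 397414 counts in the highest library and moved in different directions. The next gene on the other side of Mmp13, Dcun1d5, had a log2 fold change of 0.08 under LPS (adjusted p = 0.375, edgeR).

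The bases just before the annotated starts of these 3 neighbours are shown because the genes share a chromosomal cluster and differed in response. They are the 100 bases before a RefSeq start (GRCm38.p6, plus strand), with capitals for the letters TGANTCA, a common form of the AP-1 site. For Mmp12 the window shown lies before a start inside the gene, at chr9:7347274-7347373, and the window at its first RefSeq start, not shown, holds no TGANTCA. That of Mmp13 is chr9:7272414-7272513 and that of Mmp8 is chr9:7558329-7558428.
Mmp13: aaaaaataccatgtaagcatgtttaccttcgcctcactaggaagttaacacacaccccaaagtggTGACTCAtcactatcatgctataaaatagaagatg
Mmp12: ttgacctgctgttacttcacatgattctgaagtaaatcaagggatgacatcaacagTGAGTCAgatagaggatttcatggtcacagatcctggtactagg
Mmp8: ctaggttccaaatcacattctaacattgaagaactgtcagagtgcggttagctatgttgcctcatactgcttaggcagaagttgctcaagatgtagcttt

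Counting the base before the start as -1, the AP-1 letters stood at -35 to -29 in Mmp13 and at -44 to -38 before the internal start of Mmp12. RefSeq promoters of 300 bases (250 before and 50 after the start) were matched for 7 of the 10 members, in 8 windows. Both strands were searched, and these were the windows with TGANTCA, which 7.81% of 32851 promoters hold. GAAANNGAA, the core of an interferon-stimulated response element, was found at 2 places on the reverse strand of Mmp13, at -151 to -143 and, overlapping it, at -145 to -137. It occurs in 8.56% of promoters. The stretch chr9:7272348-7272386 is printed with the first of them in capitals because Mmp13 rose under IFN-β.
Mmp13: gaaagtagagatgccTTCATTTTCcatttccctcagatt

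GGGANTTNC, a loose form of the NF-kB site, and TTCNNNGAA, the GAS element, were not among the letters of the 8 windows. They occur in 4.26% and 8.30% of promoters. Matches and their absence are descriptions of letters only.

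Mmp12 (macrophage elastase) was by far the most abundant member. It held 7640, 7405 and 7956 CPM in unstimulated DCs, 8381, 8101 and 9178 CPM after LPS, and 9303, 9246 and 10024 CPM after IFN-β. The 3 groups did not overlap, and the order unstimulated, LPS, IFN-β was the same within each letter. IFN-β raised it 1.24-fold (log2 0.31 ± 0.10 SE, adjusted p = 0.0312, edgeR). The LPS difference of 0.16 ± 0.10 did not pass (adjusted p = 0.203, edgeR), although it did in DESeq2 (0.20, adjusted p = 0.0144).

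Both values for Mmp12 depend on the scaling. As a share of all counts it was 0.903 to 1.004% in unstimulated, 0.656 to 0.772% in LPS and 0.909 to 0.986% in IFN-β libraries. Scaled by library size only, the LPS value became -0.42 (adjusted p = 0.00154, edgeR) and the IFN-β value 0.01 (adjusted p = 0.965, edgeR), while the median of all genes was -0.62 and -0.32. The IFN-β call was also lost when any of 5 libraries was left out (adjusted p, edgeR: unstimulated A 0.064, unstimulated B 0.116, IFN-β A 0.0502, IFN-β B 0.0539 and IFN-β C 0.077), when letter A (0.0799), B (0.245) or C (0.0754) was left out of all groups, and with upper-quartile factors (0.0767). In all, 9 of 19 alternatives kept it. Mmp1b, on the other strand, shares 157 exon bases with Mmp12 and had 0 counts.

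Mmp2 and Mmp9 are the gelatinases, which cut denatured collagen and the type IV collagen of basement membranes. Mmp2 had 6.61, 10.8 and 17.4 CPM in unstimulated DCs, 34.4, 43.4 and 56.2 CPM after LPS, and 12.8, 17.2 and 30.7 CPM after IFN-β. Library C was highest and A lowest in each condition, and the LPS libraries lay above all the others. The LPS rise was 3.84-fold (log2 1.94 ± 0.37 SE, adjusted p = 0.000793, edgeR). The IFN-β value of 0.79 ± 0.37 did not pass without the block (adjusted p = 0.102, edgeR) and did with it (adjusted p = 3.1e-05), as it also did without unstimulated library C (0.0226) or IFN-β library A (0.0472). Mmp2 was 2.22-fold lower after IFN-β than after LPS (log2 -1.15 ± 0.36, adjusted p = 0.0224, edgeR). This call was lost without LPS library C (adjusted p = 0.0791, edgeR), IFN-β library A (0.0711) or IFN-β library B (0.0787), without letter B (0.186) and when scaled by library size only (0.0628). It was kept with the letters as a block (adjusted p = 2.7e-07).

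Mmp9 varied more with the letter of the library than with the stimulus. It was at 9.14, 8.12 and 19.7 CPM before stimulation, at 8.42, 8.21 and 18.6 CPM after LPS, and at 6.48, 7.17 and 17.2 CPM after IFN-β. Library C was 2.27 to 2.65 times the lowest library of its condition. The log2 differences were -0.07 ± 0.46 for LPS and -0.27 ± 0.46 for IFN-β (adjusted p = 0.904 and 0.664, edgeR). With the letters as a block the SE of the IFN-β value dropped to 0.09 and it passed at -0.28 (adjusted p = 0.0122, edgeR), each letter being lower, while LPS did not pass (adjusted p = 0.513). IFN-β against LPS gave -0.20 ± 0.47 (adjusted p = 0.747, edgeR, and 0.0474 with the block). Without the block, the estimate rested on the C libraries: it was 0.44 for LPS and 0.24 for IFN-β without unstimulated library C, -0.57 for LPS without LPS library C, and -0.85 for IFN-β without IFN-β library C, and none of these passed.

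Mmp14 (MT1-MMP) is a membrane-anchored collagenase that activates the precursor of MMP2 on the cell surface, with TIMP2 as the bridge between them. Its levels were 301, 290 and 383 CPM before stimulation, 1060, 987 and 1122 CPM after LPS, and 580, 550 and 777 CPM after IFN-β. The 3 groups did not overlap, with IFN-β between the other two. The rise was 3.25-fold under LPS (log2 1.70 ± 0.15 SE, adjusted p = 2.0e-06, edgeR) and 1.96-fold under IFN-β (log2 0.97 ± 0.15, adjusted p = 0.000347). IFN-β libraries were 1.66-fold below LPS libraries (log2 -0.73 ± 0.14, adjusted p = 0.0017, edgeR). All 3 calls held under each of the 19 alternatives.

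Mmp19, a secreted enzyme that cuts basement membrane components, was the protease that fell most under LPS. Levels were at 253, 207 and 245 CPM unstimulated, at 80.6, 60.3 and 72.0 CPM after LPS, and at 228, 191 and 238 CPM after IFN-β. The LPS libraries were well below all others, and the unstimulated and IFN-β libraries overlapped. LPS lowered Mmp19 3.31-fold (log2 -1.73 ± 0.13 SE, adjusted p = 5.3e-07, edgeR), and IFN-β libraries were 3.09-fold above LPS libraries (log2 1.63 ± 0.13, adjusted p = 2.3e-06). The IFN-β value of -0.10 ± 0.12 did not pass without the block (adjusted p = 0.53, edgeR) or with it (adjusted p = 0.158). Scaled by library size only, this value was -0.41 and passed (adjusted p = 0.0058, edgeR), while the median of all genes was -0.32. Mmp19 (chr10:128790910-128800824, plus strand) shares 789 exon bases, 22.3% of its own, with Tmem198b on the other strand. Whether the counting used strand is not given in the sources used here, so reads from that stretch cannot be assigned to either gene. Tmem198b had only 163 to 425 counts per library and a smaller fall under LPS (log2 -0.54, adjusted p = 0.000612, edgeR).

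Among the inhibitors, Timp1 and Timp2 went opposite ways under LPS. Timp1 is a secreted inhibitor that binds the precursor of MMP9 and is known as an inducible gene. It was at 18.1, 16.8 and 14.97 CPM in unstimulated DCs, at 128, 105 and 78.8 CPM after LPS and at 20.1, 20.97 and 17.9 CPM after IFN-β. Every LPS library was far above the other 6, which overlapped between unstimulated and IFN-β. LPS raised Timp1 6.24-fold (log2 2.64 ± 0.16 SE, adjusted p = 1.3e-07, edgeR), and IFN-β libraries were 5.28-fold below LPS libraries (log2 -2.40 ± 0.16, adjusted p = 7.4e-07). The IFN-β value against unstimulated was 0.24 ± 0.15, which did not pass without the block (adjusted p = 0.226, edgeR) and did with it (adjusted p = 0.0336), and it was -0.06 when scaled by library size only. Timp1 (chrX:20870166-20874735, plus strand) lies within Syn1 on the other strand but shares no exon base with it.

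Timp2, which both inhibits MMPs and takes part in the activation of pro-MMP2 by MMP14, had 109, 70.9 and 50.2 CPM in unstimulated DCs. The LPS libraries had 49.6, 35.1 and 20.3 CPM, and the IFN-β libraries 81.5, 58.5 and 45.6 CPM. In each condition A was highest and C lowest, so that LPS library A (49.6) came close to unstimulated library C (50.2). The LPS fall was 2.20-fold (log2 -1.13 ± 0.35 SE, adjusted p = 0.0132, edgeR), and within the letters it ran from -1.28 to -1.004. It was no longer called without unstimulated library A (-0.80, adjusted p = 0.0556, edgeR) or without letter B (-1.19, adjusted p = 0.0932), and with the block its adjusted p was 8.9e-09. IFN-β against unstimulated gave -0.31 ± 0.34 (adjusted p = 0.485, edgeR, and 0.00564 with the block). The higher level after IFN-β than after LPS, 0.82 ± 0.35, did not pass without the block (adjusted p = 0.0702, edgeR) and did with it (4.3e-07). It also passed without unstimulated A (0.0443), unstimulated C (0.0444) or LPS A (0.0254).

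Timp3, the inhibitor that stays bound to the matrix and also acts on ADAM proteases, was the least abundant member, with 35 to 173 counts per library. It stood at 0.886, 1.23 and 3.90 CPM before stimulation, at 2.40, 3.32 and 5.16 CPM after LPS and at 1.38, 2.47 and 4.47 CPM after IFN-β. Library C was 2.15 to 4.401 times library A in each condition, and all groups overlapped. The LPS value of 0.85 ± 0.55 did not pass without the block (adjusted p = 0.193, edgeR) and did with it (0.95 ± 0.20, adjusted p = 0.000634), and likewise for IFN-β (0.45 ± 0.55, adjusted p = 0.541, edgeR, and 0.0411 with the block). Without unstimulated library C both values passed without a block, at 1.76 for LPS (adjusted p = 0.0088, edgeR) and 1.37 for IFN-β (adjusted p = 0.0471). Timp3 (chr10:86300372-86349506, plus strand) shares 21.3% of its exon bases with Syn3 on the other strand, which had 121 to 314 counts and fell under LPS (log2 -0.61, adjusted p = 0.00185, edgeR).

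**Figure D2:**
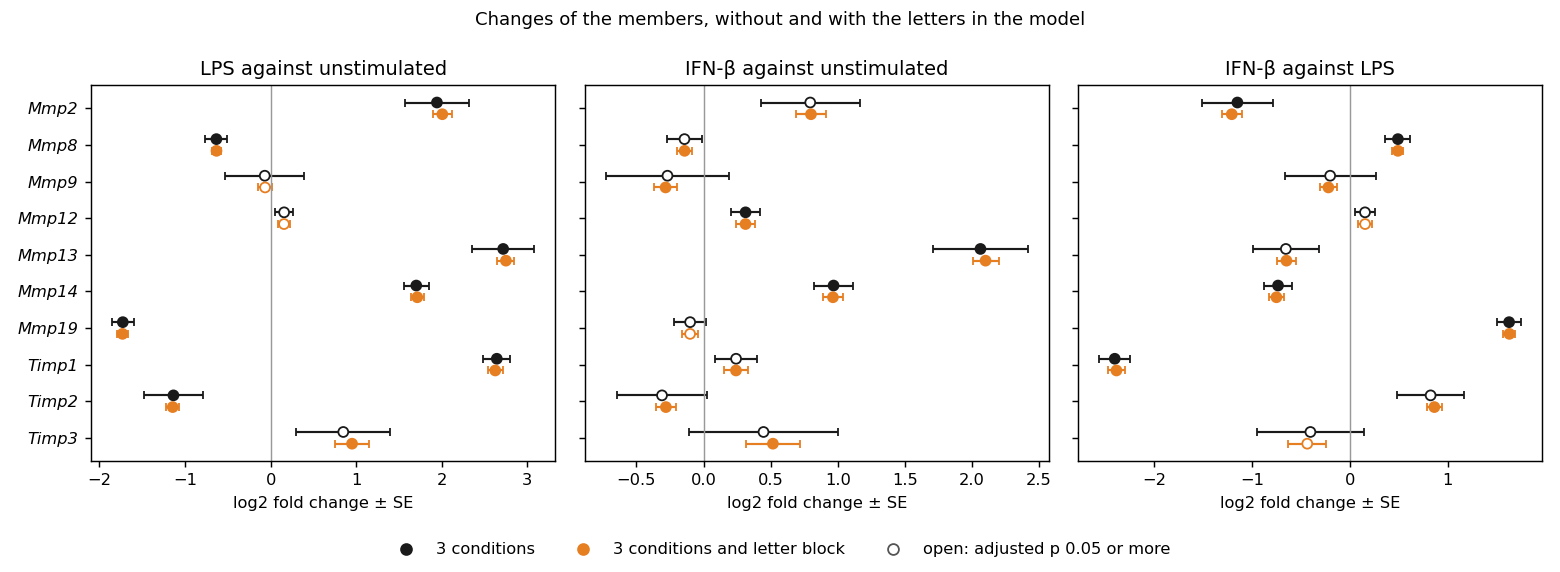
Log2 fold changes of the 10 members with their SE in the 3 comparisons, from the model with 3 conditions (black) and from the model that adds the letters (orange), where filled points had an adjusted p under 0.05. The estimates of both models lie close together and the error bars of Mmp9, Timp2, Timp3, Mmp2 and Mmp13 shrink most when the letters are added.

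The spread of the members over the 9 libraries was split into the part between conditions and the part between letters, from the sums of squares of log2(CPM + 0.5). The part between letters was larger than that between conditions for Mmp9 (94.6% against 4.31%) and for Timp3 (68.0% against 26.8%), as it was for 10.9% of all tested genes. Timp2 was divided most evenly, with 44.05% between letters and 54.2% between conditions. At the other end, conditions held 97.6% of the spread of Timp1, 96.7% of that of Mmp19 and 94.5% of that of Mmp14. The medians over all tested genes were 83.5% between conditions and 6.51% between letters.

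The letters did not act in one direction on the members. Library C was highest in all 3 conditions for Mmp2, Mmp9, Mmp12, Mmp14 and Timp3, and it was lowest in all 3 for Mmp13, Timp1 and Timp2. The summed neutrophil markers were lowest in library C of each condition, at 23.4, 56.7 and 41.9 CPM, and Mmp9 was highest there. Single markers differed in this. Csf3r, S100a9, Ngp and Ltf were also lowest in library C of each condition. Cebpe was highest there (2.41, 2.67 and 7.81 CPM), and S100a8 was lowest in library B (6.85, 9.70 and 6.48 CPM). Macrophage markers were at 3185, 2524 and 2378 CPM before stimulation and at 3135, 2465 and 2245 CPM after LPS. Mmp13, Timp1 and Timp2 had the same order in those libraries, Mmp2 and Timp3 the reverse order, and the other members neither. After IFN-β the macrophage markers were at 3650, 3141 and 3254 CPM. The part of these markers in the members' values was not tested.

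**Figure D3:**
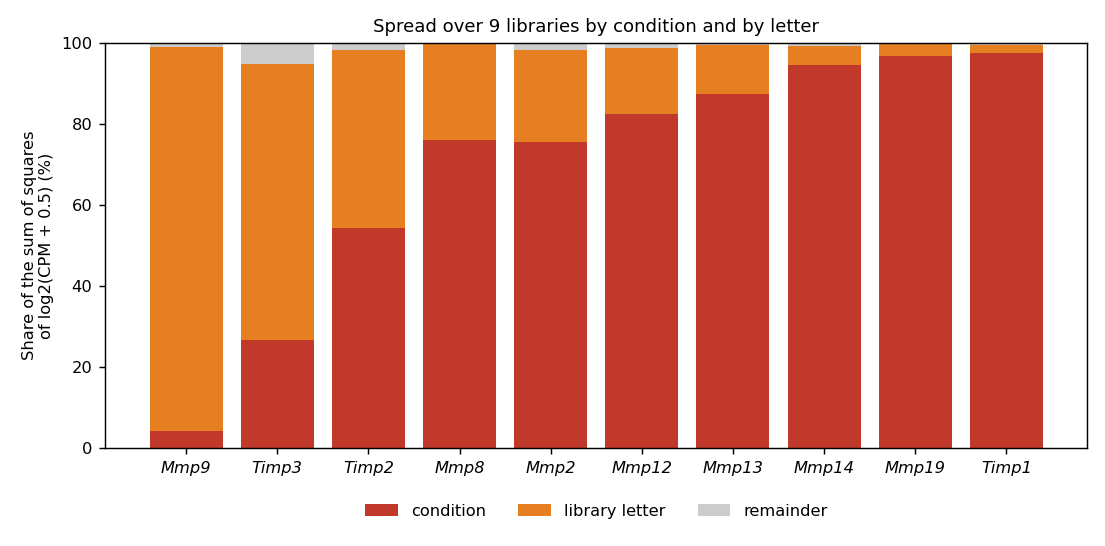
Share of each member's sum of squares of log2(CPM + 0.5) over 9 libraries that lies between the 3 conditions, between the 3 letters, or in neither, stacked to 100%. Letters hold 94.6% for Mmp9 and 68.0% for Timp3, and conditions hold over 90% for Mmp14, Mmp19 and Timp1.

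Because a longer transcript gives more reads, levels of different members were set side by side as CPM per kb of annotated exon. Without stimulation Mmp12 was highest at 1059 ± 38.2 CPM per kb (SD, n = 3), followed by Mmp8 at 173 ± 22.5, Mmp13 at 123 ± 48.7, Mmp19 at 66.5 ± 6.94 and Mmp14 at 54.5 ± 8.51. Timp2 and Timp1 followed at 19.7 ± 7.69 and 18.7 ± 1.76, Mmp9 and Mmp2 at 3.48 ± 1.81 and 3.44 ± 1.61, and Timp3 was lowest at 0.246 ± 0.203. The ranges of Mmp8 and Mmp13, Mmp13 and Mmp19, Mmp19 and Mmp14, Timp2 and Timp1, and Mmp9 and Mmp2 overlapped, so the order within these pairs of neighbours was not separated.

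After LPS the order changed to Mmp12 (1182 ± 77.2 CPM per kb), Mmp13 (805 ± 260), Mmp14 (177 ± 11.3), Timp1 (117 ± 27.7) and Mmp8 (112 ± 13.7). Mmp19 (20.1 ± 2.88), Mmp2 (13.2 ± 3.24), Timp2 (8.99 ± 3.76), Mmp9 (3.32 ± 1.68) and Timp3 (0.445 ± 0.172) came after them. The ranges of Timp1 and Mmp8, Mmp2 and Timp2, and Timp2 and Mmp9 overlapped. After IFN-β, Mmp12 (1316 ± 59.9), Mmp13 (512 ± 169), Mmp8 (157 ± 19.2), Mmp14 (107 ± 20.7) and Mmp19 (62.0 ± 6.98) led, with no overlap between neighbours down to Timp1 (22.1 ± 1.75). Below it were Timp2 (15.9 ± 4.67), Mmp2 (6.00 ± 2.77), Mmp9 (2.90 ± 1.69) and Timp3 (0.341 ± 0.193), where Timp1 and Timp2 overlapped and Mmp2 and Mmp9 overlapped. The place of Mmp14 in these orders depends on the length used: per kb of its longest transcript it was 100 ± 15.7 unstimulated, above Mmp19 (69.0 ± 7.21), and 196 ± 38 after IFN-β, above Mmp8 (157 ± 19.2).

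Added up, the 7 MMPs came to 1483 ± 57.6 CPM per kb (SD, n = 3) in unstimulated, 2313 ± 210 in LPS and 2163 ± 141 in IFN-β libraries. Mmp12 made up 71.5 ± 2.42% of this sum before stimulation, 51.5 ± 6.91% after LPS and 61.0 ± 5.02% after IFN-β, and Mmp13 made up 8.27 ± 3.24%, 34.4 ± 8.47% and 23.5 ± 6.47%. The 3 TIMPs came to 38.7 ± 9.22, 126 ± 31.3 and 38.4 ± 5.63 CPM per kb. Timp1 and Timp2 had nearly equal shares of the TIMP sum in unstimulated libraries, at 49.5 ± 7.002% and 49.7 ± 7.64%, and Timp1 held 92.7 ± 1.06% after LPS and 58.2 ± 5.67% after IFN-β. The sums depend on the scaling, and the shares do not. Scaled by library size only, Mmp12 fell from a mean of 1302 CPM per kb unstimulated to 970 after LPS. Mmp13 rose from 149 to 656 with that scaling. The 10 members held 1.085 to 1.176% of all counts in unstimulated, 0.987 to 1.031% in LPS and 1.193 to 1.232% in IFN-β libraries. Whether the MMP sums of LPS and unstimulated libraries stand apart, and how large the rise is, thus depends on the TMM factors.

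The ratio of the MMP sum to the TIMP sum, which does not depend on how the libraries are scaled, was 31.6, 38.1 and 49.5 before stimulation. It was 16.2, 17.6 and 22.7 after LPS and 53.1, 52.5 and 65.5 after IFN-β. The 3 groups did not overlap. The means were 39.7 ± 9.04, 18.9 ± 3.43 and 57.0 ± 7.32 (SD, n = 3). This ratio depends on Mmp12 and Timp1, the MMP and the TIMP with the highest mean over the 9 libraries. In unstimulated cells Timp1 and Timp2 overlapped (18.7 ± 1.76 and 19.7 ± 7.69 CPM per kb). Without Mmp12 and Timp1 it was 22.8 ± 6.38 unstimulated, 126 ± 22.8 with LPS and 53.2 with IFN-β, so that LPS went from the lowest to the highest of the 3 conditions. It is a ratio of transcripts, given as a description with no test. Mmp14 over Timp2, the pair that handles pro-MMP2, was 1.80, 2.68 and 4.99 per kb before stimulation, 14.0, 18.4 and 36.1 after LPS, and 4.66, 6.14 and 11.1 after IFN-β, where the LPS libraries stood above all the others.

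**Figure D4:**
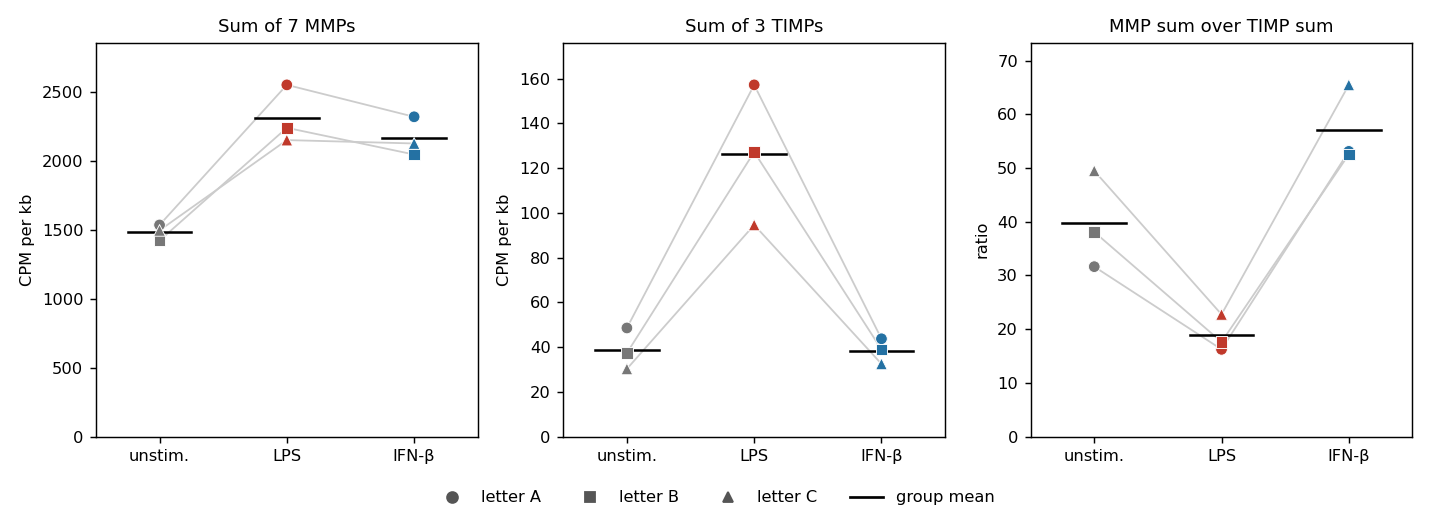
Summed levels of the 7 MMPs and of the 3 TIMPs in CPM per kb of exon, and their ratio, in the 9 libraries on linear axes that start at 0, with black bars for the mean of 3 libraries. The TIMP sum is highest in the LPS libraries (mean 126), and the ratio is lowest there (mean 18.9).

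Of the 17 other MMP and TIMP genes, 5 passed the filter on low counts and 12 did not, among them Timp4 with 0 counts in every library. LPS changed 4 of the 5 and IFN-β 2 of the 5 (edgeR, adjusted p under 0.05), or 4 with the block, and 4 of the 5 differed between the stimuli. Of all tested genes 68.2%, 46.9% (56.3% with the block) and 49.1% did so. Mmp25, a membrane-bound MMP known from leukocytes, was the only one above 3 CPM. It was at 62.8, 55.9 and 53.4 CPM in unstimulated DCs, at 162, 162 and 163 CPM after LPS, and at 94.9, 84.2 and 89.8 CPM after IFN-β. The groups did not overlap, and its order of LPS, IFN-β and unstimulated was that of Mmp14. The log2 changes of Mmp25 were 1.5 ± 0.07 (SE) for LPS and 0.64 ± 0.07 for IFN-β (adjusted p = 3.7e-08 and 5.8e-05, edgeR).

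Mmp28 (epilysin) had 4 to 9 counts in unstimulated libraries, 28 to 68 with LPS and 65 to 76 with IFN-β. It rose 9.31-fold and 10.7-fold (log2 3.22 ± 0.36 and 3.42 ± 0.36 SE, adjusted p = 1.5e-05 and 3.2e-05, edgeR), and the difference between the stimuli did not pass (log2 0.20 ± 0.27, adjusted p = 0.573). Mmp24, a membrane-type MMP, had 0, 0 and 3 counts unstimulated and 16, 16 and 11 counts with LPS. The ratio of the summed Mmp24 counts, scaled, was 19.3 (95% interval 6.19 to 97.4, counting error only). Mmp23 fell under LPS (log2 -1.63 ± 0.37, adjusted p = 0.00237, edgeR), from 61 to 105 counts to 10 to 25 counts, and was higher after IFN-β than after LPS (1.13 ± 0.38, adjusted p = 0.0304). The second of these calls for Mmp23 was lost without LPS library A (adjusted p = 0.1, edgeR), LPS library B (0.0513), IFN-β library B (0.0502) or IFN-β library C (0.126). That call was also lost when letter B (adjusted p = 0.115, edgeR) or letter C (0.108) was left out of all groups. Mmp23 under IFN-β passed with the block (-0.52, adjusted p = 0.0329, edgeR) and not without it (0.238). Mmp27 did not pass under LPS (adjusted p = 0.184, edgeR, and 0.0746 with the block), and under IFN-β it passed with the block (0.56, adjusted p = 0.0128) and not without it (0.101). It was higher after IFN-β than after LPS (log2 1.0 ± 0.27, adjusted p = 0.0113, edgeR), a call that was lost when letter B was left out of all groups (0.117).

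Activators, partners and inhibitors of MMPs other than TIMPs were taken as a list of 24 genes, of which 15 were tested. LPS changed 13 of them, 10 higher and 3 lower, where 68.2% of all tested genes passed, 32.8% higher and 35.4% lower. Their median log2 fold change was 0.86, beside -0.04 for all tested genes. Lcn2, which binds MMP9, rose 48.8-fold (log2 5.61 ± 0.26 SE), and Plat, the tissue plasminogen activator, rose 34.4-fold (log2 5.10 ± 0.18). Plau, the urokinase plasminogen activator, fell 5.62-fold (log2 -2.49 ± 0.09), and Itgb3, an integrin subunit, fell 2.41-fold (log2 -1.27 ± 0.17), with adjusted p-values of at most 6.1e-05 in these 4 genes (edgeR).

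IFN-β changed 6 of the 15, all higher, with a median of 0.36, where 46.9% of all genes passed. With the letters as a block 10 passed, where 56.3% of all genes did. They include Plat (log2 1.38 ± 0.20, adjusted p = 0.000328, edgeR). After IFN-β against LPS, 11 of the 15 differed, 2 higher and 9 lower, with a median of -0.58, where 49.1% of all genes differed. Plau (log2 2.72 ± 0.09) and Itgb3 (1.06 ± 0.17) were the 2 higher ones, and Lcn2 (-5.16 ± 0.26) and Serpinb2, another inhibitor of urokinase (-3.96 ± 0.28), were lowest.

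In the neighbouring family of ADAM and ADAMTS proteases, 17 of 24 listed genes were tested. LPS changed 12, IFN-β changed 8 and 13 differed between the stimuli, beside 68.2%, 46.9% and 49.1% of all genes, so that the first 2 counts are close to the background. With the block the counts were 13, 11 and 14, beside 73.5%, 56.3% and 58.0% of all genes. Of the 12 under LPS, 7 were higher and 5 lower (median log2 fold change 0.10). Adamts4, an aggrecanase, rose from a mean of 0.196 to 11.9 CPM (log2 5.91 ± 0.30 SE) and Adamts1 rose by 2.46 ± 0.37, while Adamts10 (-1.55 ± 0.13) and Adam23 (-1.17 ± 0.18) fell. Of the 8 under IFN-β, 5 were higher and 3 lower (median 0.19), with Adam33 (2.09 ± 0.44) and Adamts1 (1.41 ± 0.38) rising most and Adam22 (-1.41 ± 0.25) and Adamts10 (-0.88 ± 0.13) falling most. Between the stimuli 6 were higher and 7 lower after IFN-β (median -0.44). Among them Adam23 (0.91 ± 0.18) and Adam8 (0.89 ± 0.08) were higher, and Adamts4 (-5.43 ± 0.29) and Adamts9 (-1.84 ± 0.40) were lower.

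Of 25 known MMP substrates, 18 were tested. LPS changed 9, IFN-β changed 5 and 5 differed between the stimuli, a smaller share each time than the 68.2%, 46.9% and 49.1% of all genes. The counts with the block were 11, 6 and 6, beside 73.5%, 56.3% and 58.0% of all genes. Under LPS, 7 were higher and 2 lower (median log2 fold change 0.68). The proteoglycan Vcan rose 15.8-fold (log2 3.98 ± 0.14 SE), from a mean of 149 to 2360 CPM, and the type IV collagen gene Col4a2 rose 11.1-fold (log2 3.47 ± 0.21). Col5a1 fell by 0.69 ± 0.23 and Fn1, fibronectin, by 0.37 ± 0.12 on the log2 scale. Under IFN-β, 3 were higher and 2 lower (median 0.07): Col4a2 by 2.38 ± 0.21 and Vcan by 2.28 ± 0.13, with Col5a1 (-1.12 ± 0.23) and Fn1 (-0.96 ± 0.12) lower again. The 5 substrates that differed between the stimuli were all lower after IFN-β than after LPS (median -0.59), with Col4a1 (-2.14 ± 0.25) and Tnc (-1.87 ± 0.23) furthest apart.

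Fibroblast markers, some of which are matrix genes themselves, summed to 4.13 to 6.72 CPM in unstimulated, 24.1 to 42.5 CPM in LPS and 4.92 to 6.82 CPM in IFN-β libraries. The LPS sum came mostly from Pdgfrb, at a mean of 23.5 CPM against 0.714 CPM unstimulated, and Fbln1 was at 0 counts in the LPS and IFN-β libraries. Mast cell, basophil and eosinophil markers were between 20.6 and 43.0 CPM, with Siglecf highest. The part of these markers in the rise of Mmp2, Timp1 and the matrix genes was not tested.

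For each member, the tested genes with the most similar profile were found as those with the smallest root mean square difference of log2(CPM + 0.5) over the 9 libraries, after centring each gene on its unstimulated mean. The nearest to Mmp12 was Hspa8 (0.06 log2 units), to Mmp8 Pdp2 (0.09), and to Mmp14 Gm38162 (0.09), followed by Hivep3 (0.12). Tle6 was nearest to Mmp19 (0.14), Ms4a14 to Mmp13 (0.15) and Zc3h12a to Timp1 (0.16). For Mmp13 the next were C130026I21Rik (0.17) and Crim1 (0.21). H4c18 was nearest to Timp2 (0.20) and Gm20100 to Mmp2 (0.23). For Mmp9 and Timp3 no gene came closer than 0.27 (Cck) and 0.35 (Gm43753). No member was among the 3 nearest genes of another member.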

How the data were processed

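RNA was sequenced from 9 libraries made after ribosomal RNA removal. The deposited values are the authors' raw counts of reads on each gene (unit: counts). Per the labels' processing notes, reads were trimmed with Trim Galore 0.6.0 and mapped with STAR 2.7.8a to GRCm38/mm10, and the study's methods give an earlier release of STAR. The strand setting of the counting is not given in the sources used here. All count columns were used. The files have 55471 identifiers, of which 55144 had an entry in GENCODE M21, used for positions and exon lengths.

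Tests used edgeR 4.0.16 in R 4.3.3, with TMM factors, filterByExpr, 1 term per condition and quasi-likelihood F-tests, adjusted over 16260 genes by the Benjamini-Hochberg method. The threshold was an adjusted p of 0.05. The script was tested on simulated data. Exact permutation tests of 3 against 3 libraries cannot go below p = 0.1. Replicate libraries differed by more than sampling noise. Intervals cover counting error only, and 3 counts was taken as the floor.

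The main tests left the letters out and so did not pair the libraries. Only the fits with the letters as a block paired them. Deviations from group means correlated at 0.134 to 0.546 in the 9 same-letter pairs, and at -0.480 to 0.0623 in 18 others, over 16260 genes.

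The members and gene lists were chosen with earlier results of these data known. Named were all members, every other tested MMP, up to 2 called genes with the largest rise and fall per list and comparison, the nearest profiles, and overlapping or neighbouring genes. Some genes under this rule are not reported here. Flt3, Cd209a, Csf3r, Elane, Mpo, Ly6g, Retnlg, S100a8, S100a9, Ngp, Ltf, Camp, Cebpe, Cxcr2, Pdgfrb, Fbln1 and Siglecf were named after their values were seen. Alternatives were DESeq2 1.42.0, other scalings and filters, 2 groups alone, the letters as a block, and libraries left out.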

Additional observations from a re-analysis of the deposited data

How the results depend on the processing

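Over 19 alternatives for each of 10 members and 3 comparisons, 519 of 570 values kept their direction or their lack of a call, 18 lost a call, 32 gained one and 1 reversed. The reversal was Mmp12 under LPS, 0.16 with TMM and -0.42 when scaled by library size only. That scaling moved the median of all genes by -0.58 (LPS), -0.31 (IFN-β) and 0.27 (IFN-β against LPS), and the share of called genes that were higher from 48.1 to 21.9%, from 50.3 to 22.3% and from 52.5 to 77.9%. With the replicate letters as a block, 9 members were called under IFN-β in place of 3 and 8 between the stimuli in place of 5, and no call was lost. Of all tested genes, 56.3% were then called under IFN-β in place of 46.9%, and 58.0% between the stimuli in place of 49.1%. Among the members, the block gave 10 calls more over the 3 comparisons and changed no other call. A further threshold of 1 on the absolute log2 fold change left 1 member under IFN-β and 3 between the stimuli, and 5429, 2052 and 2834 of all genes in the 3 comparisons (11084, 7631 and 7989 without it). Leaving out 1 library gave 2 to 5 members under IFN-β, beside 6467 to 7742 of all genes, with 16503 to 16656 tested. Settings chosen after seeing the data left out 1 letter from all groups, and without letter B 5051 genes were called under IFN-β and 5096 between the stimuli. Lengths from the longest transcript gave MMP to TIMP ratios of 56.8, 25.9 and 78.7 (unstimulated, LPS, IFN-β), and dropping Mmp12 and Timp1 gave 22.8 and 125.5 for the first 2 conditions. Counts limit Timp3 most, with 35 counts in its lowest library.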
